A study of Mus musculus with 8 samples.

Results

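The genes followed here, in perigonadal white adipose tissue (pgWAT), are 10 markers of adipose progenitors and fibroblasts: Pdgfra, Pdgfrb, Dlk1, Cd34, Ly6a, Dpp4, Pi16, Dcn, Lum and Mme. They were chosen by name, as every probe whose current or older gene symbol in the array annotation is one of these 10. The annotation used here holds 11 probes for 9 of them and none for Ly6a, among 25697 probes for 16593 genes. Of the 9, 8 (10 probes) were above background on at least 3 of the 8 arrays and were tested, out of 9597 genes (13775 probes) tested in all. Dlk1 was above background on 0 arrays.

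RNA from 8 male mice, 1 array per mouse, had been hybridized to Illumina MouseRef-8 v2.0 beadchips. The 3 FKO mice carried Adiponectin-Cre and a floxed Ogt allele on their only X chromosome (Adiponectin-Cre; OGT flox/Y), and the 5 Con mice were littermates with the same floxed allele and without Cre (OGT flox/Y). By the labels all were 15 weeks old and of strain B6 (C57BL/6J in the methods), and by the methods all had eaten a high-fat diet for 3 days. The labels and the paper's figure legends give 3 FKO and 5 Con arrays, the methods give the numbers the other way round, and the labels were used. The Adiponectin promoter drives Cre in adipocytes, so progenitors, fibroblasts and vessels in these depots are expected to keep Ogt, and the question put to these genes is whether the cells around the adipocytes read differently.

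White fat is held together by a stroma in which mesenchymal cells lie along vessels, between lobules and under the mesothelium. PDGFRα-positive cells of this stroma are the main source of new adipocytes. In mouse fat, cells high in DPP4 and PI16 sit in the interstitium as multipotent progenitors, and cells nearer to adipogenesis carry other surface proteins such as ICAM1. Fibroblasts in turn fill the matrix with collagen and with the small leucine-rich proteoglycans decorin and lumican.

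Between FKO and Con, 0 of the 8 tested members passed limma's test (adjusted p = 1 for each), and so did 0 of all 13775 probes (0%). Mme averaged 326.5 ± 60.1 in FKO, against 228.9 ± 7.23 in Con (mean intensity ± SD, n = 3 and 5), and it was the single member whose groups did not overlap. Over all tested probes, groups did not overlap for 1.15% with FKO higher and for 1.44% with FKO lower. Pdgfra averaged 438.9 ± 78.1 in FKO, against 536.4 ± 50.9 in Con, with overlapping groups. At an unadjusted p under 0.05 limma took Mme higher, as for 315 (2.29%) of all tested probes, and Pdgfra lower, as for 271 (1.97%). The methods' t-test criterion (p under 0.01 and a fold above 1.5) took 0 members and 1 (0.00726%) of all tested probes. Here it was applied to the background-corrected log2 values of the limma fit, whereas the methods name quantile-normalized data. By this criterion the paper reports far more changed genes, in both directions, and the reason for the gap was not tested. Of the 8, 5 had a negative log2 fold change, FKO over Con, where 56.6% of all tested probes did, and the median was −0.086 over the members and −0.016 over all tested probes. In whole tissue, fewer cells of a type and less RNA per cell cannot be told apart. The p-values only set the difference between the labels against the variation among these 8 mice.

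**Figure D1:**
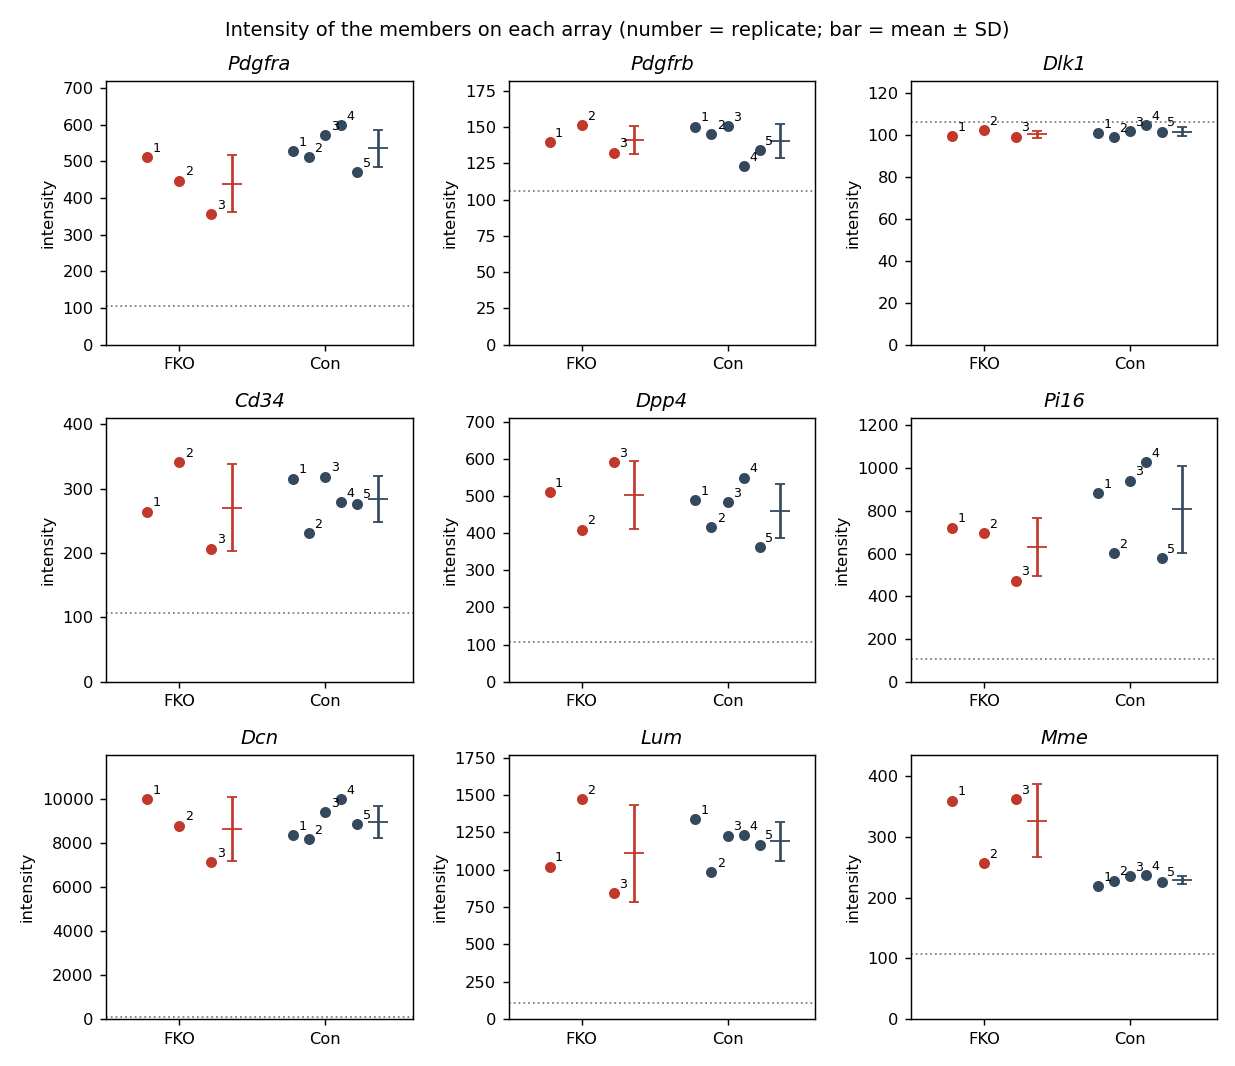
Intensity of the brightest probe of each of the 9 measured genes on the 3 FKO and the 5 Con arrays, with linear axes from 0. Points are arrays, numbered by replicate, the bars are mean ± SD, and the dotted line is the background limit of 106.28. The Mme points of FKO lie above all 5 Con points, Dlk1 lies under the limit everywhere, and the groups overlap in the other 7 panels. Over all tested probes, groups part for 1.15% with FKO higher and for 1.44% with FKO lower.

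Values are linear intensities, already quantile-normalized, with a background mode of 98.601 and a limit of 106.28 above which a probe was counted as measured. Between 51.166% and 51.267% of the probes lay above it per array. Across probes, correlations between arrays ranged from 0.94676 to 0.99628. Ogt itself did not part the labels: its brightest probe, ILMN_2611676, read 296, 177 and 260 on the arrays labelled FKO 1 to FKO 3, against 188, 264, 199, 232 and 267 on those labelled Con 1 to Con 5 (log2 fold change 0.08, standard error (SE) 0.23, two-sided exact permutation p = 0.768). Its other 2 probes gave 0.01 and −0.04 (exact permutation p = 0.946 for both), and whether the probes lie in the deleted part was not settled here. All directions below are therefore between labels. Adipocyte markers were measured on these arrays (9 of the 9 with a probe were tested), as the label of the tissue says. Transcripts of the epididymis, which lies against this depot, were high on 2 arrays: the 14 epididymal genes with a probe, of 17 listed, summed to 7766, 1434 and 13550 on FKO 1 to FKO 3, against 1449, 2147, 1548, 1560 and 1471 on Con 1 to Con 5. Of those 14, 8 were tested and 6 (Adam28, Lcn5, Lcn9, Lcn10, Gpx5 and Defb21) were not above background. The part of epididymal transcripts in the values below was not tested, and each tested member is also given without FKO 1, FKO 3 and Con 2, which leaves 1 FKO array, assumed to vary like the rest.

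The upstream windows of 2 members are shown: Mme, whose groups parted, and Cd34, whose profile over the arrays was matched closely by other genes. They are the 250 bases before the annotated start, RefSeq, build GRCm38.p6, plus strand. Capitals mark GGGCGG, the letters of a GC box.
Mme, chr3:63294961-63295210: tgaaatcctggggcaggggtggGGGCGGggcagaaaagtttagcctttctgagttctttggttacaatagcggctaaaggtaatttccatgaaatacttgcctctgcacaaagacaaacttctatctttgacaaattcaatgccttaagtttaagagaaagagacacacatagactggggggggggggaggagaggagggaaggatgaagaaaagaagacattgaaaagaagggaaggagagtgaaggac
Cd34, chr1:194938571-194938820: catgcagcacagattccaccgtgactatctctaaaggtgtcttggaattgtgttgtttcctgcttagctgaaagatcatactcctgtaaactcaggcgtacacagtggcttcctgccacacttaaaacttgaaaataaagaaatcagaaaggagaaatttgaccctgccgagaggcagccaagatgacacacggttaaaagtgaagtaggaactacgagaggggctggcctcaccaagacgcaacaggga
The Mme window shown is the first listed of 3. It holds 1 GC box and 45.6% G and C, and the Cd34 window holds 0 and 46.4%, where the median of all windows is 52.4%. RefSeq promoters were found for 6 members, with 8 windows. In these, GGGCGG or its reverse CCGCCC was found in 3 of the 3 Mme windows and in no window of the other 5 genes, against 32.7% of 32817 windows in all. CCAAT or ATTGG was found in the 2 Mme windows not shown and in that of Pi16 (33.8% of all), and TATAAA or TTTATA in that of Dpp4 (12.4%). Pdgfra, Dlk1 and Cd34 had none of the 3 motifs in their windows. These are matches of letters on both strands and were not tested for function.

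Pdgfra encodes the receptor for PDGF-A and PDGF-C and is the gene by which adipose progenitors are most often recognized. Its probe ILMN_1235932 read 512.2, 448.0 and 356.7 on FKO 1 to FKO 3, against 527.8, 511.8, 572.5, 599.7 and 470.4 on Con 1 to Con 5. FKO 2 and FKO 3 were the 2 lowest arrays, and FKO 1 lay inside the Con range, just above Con 2. The log2 fold change was −0.33 (SE 0.14, 95% confidence interval −0.64 to −0.01), with an unadjusted p of 0.043 by limma and an exact permutation p of 0.0714. Without FKO 3 it was −0.17, and without FKO 1, FKO 3 and Con 2 it was −0.29.

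Pdgfrb encodes the receptor for PDGF-B and marks pericytes, smooth muscle and many fibroblasts. Its probe ILMN_2903972 was dim, at 139.6, 151.5 and 132.3 in FKO, against 150.4, 145.1, 150.5, 123.0 and 134.0 in Con. The FKO arrays lay within or just above the Con values, and FKO 2, the highest, was 1.23 times Con 4, the lowest. The log2 fold change was 0.01 (SE 0.11, interval −0.25 to 0.27, exact permutation p = 0.911), and at this brightness folds are compressed. Without FKO 1, FKO 3 and Con 2 it was 0.18.

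Of the ligands of these receptors, Pdgfa, Pdgfb and Pdgfc were measured and Pdgfd was not above background. With Pdgfrl, a receptor-like gene, 1 value was positive and 3 were negative, 0 passed the test, and the median was −0.12. Pdgfa read 714.4, 1078 and 711.1 in FKO, against 1094, 770.2, 991.1, 814.5 and 734.3 in Con, so that its high arrays were FKO 2, Con 1 and Con 3 (log2 fold change −0.09, SE 0.19). Pdgfb gave −0.14 (SE 0.22) and Pdgfc −0.18 (SE 0.11).

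Markers of mural cells, which carry PDGFRβ around vessels, had 6 positive and 5 negative values among 11 tested (median 0.02), and 0 passed. Rgs5, a G-protein regulator of pericytes, read 370.1, 342.6 and 285.1 in FKO, against 268.7, 322.3, 240.1, 316.3 and 174.3 in Con (log2 fold change 0.42, SE 0.24). Its FKO arrays overlapped the upper Con arrays. Notch3, a receptor of vascular smooth muscle, gave 0.14 (SE 0.13). Des, the muscle filament desmin, gave −0.37 (SE 0.29), with Con 2 alone at 439.7 and every other array between 190.2 and 235.2.

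Cd34 encodes a sialomucin on stromal progenitors and on endothelium. ILMN_2714360 read 264.0, 341.4 and 207.0 in FKO, against 315.7, 231.0, 318.4, 278.7 and 277.0 in Con. An FKO array was thus the highest (FKO 2) and another the lowest (FKO 3), and the spread within FKO was wider than the difference from Con. This gave a log2 fold change of −0.11 (SE 0.20, interval −0.56 to 0.34, exact permutation p = 0.643). It was 0.10 without FKO 3 and 0.23 without FKO 1, FKO 3 and Con 2. Over 9 endothelial genes the median deviation from the mean of all arrays was 0.02, 0.45 and −0.49 on the log2 scale in FKO, against 0.21, −0.11, 0.23, −0.30 and −0.04 in Con, and for Cd34 it was −0.07, 0.36 and −0.49 in FKO, against 0.23, −0.30, 0.24, 0.02 and 0.01 in Con. Both were high on FKO 2, Con 1 and Con 3 and low on FKO 3. The summed intensity of the 10 endothelial genes with a probe, of 11 listed, ranged from 3503 to 6193 in FKO and from 3826 to 5557 in Con, and its part in the Cd34 values was not tested.

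Ly6a, the gene of SCA-1, had no probe to read, and it is not analysed here. Its relatives on the array do not stand in for it. Of 5 tested genes of the Ly6 family, 2 values were positive and 3 negative, and 0 passed the adjusted test. Ly6c1, found on endothelium and on interstitial progenitors, read 1157, 1271 and 709.3 in FKO, against 1259, 1300, 1356, 1264 and 1103 in Con (−0.32, SE 0.19), with FKO 3 far under the rest. Ly6e gave 0.39 (SE 0.18) and Ly6h −0.25 (SE 0.10, unadjusted p = 0.0369 by limma). Ly6f was high on the same arrays as the epididymal genes, with 1690, 99.96 and 3041 in FKO, against 94.84, 399.2, 103.6, 117.6 and 105.9 in Con. It was above background on 2 FKO and 2 Con arrays, and no fold is given.

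Dpp4 encodes a membrane peptidase that trims dipeptides from incretins and chemokines and marks interstitial progenitors in mouse fat. ILMN_2615096 read 510.6, 408.8 and 591.1 in FKO, against 488.6, 416.3, 483.2, 549.4 and 362.3 in Con. FKO 3 was the highest of all arrays, and only Con 5 lay below FKO 2. The log2 fold change was 0.14 (SE 0.17, interval −0.26 to 0.54, exact permutation p = 0.482). It was 0.01 without FKO 3, 0.05 without Con 5 and 0.30 without FKO 2, and it was −0.20 without FKO 1, FKO 3 and Con 2 and 0.37 without FKO 2, Con 1 and Con 3.

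Pi16 encodes a secreted peptidase-inhibitor-like protein that shares this cell state in mice. ILMN_2669062 read 720.8, 696.6 and 472.5 in FKO, against 883.4, 600.9, 941.7, 1028 and 579.2 in Con. Con itself split, with Con 1, Con 3 and Con 4 above every FKO array and Con 2 and Con 5 below FKO 1 and FKO 2. Its highest array was 2.18 times its lowest, FKO 3. Between the groups the log2 fold change was −0.36 (SE 0.25, interval −0.93 to 0.21, exact permutation p = 0.25), −0.15 without FKO 3 and −0.28 without FKO 1, FKO 3 and Con 2. Dpp4 and Pi16 did not run together on FKO 3, which was the highest array for Dpp4 and the lowest for Pi16.

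Of 11 other genes of interstitial progenitors, all tested, 2 had a log2 fold change above 0 and 9 below it, from −0.32 to 0.02 with a median of −0.13, and 0 passed the test or an unadjusted p of 0.05. Smpd3, a sphingomyelin phosphodiesterase, read 144.6, 148.4 and 125.6 in FKO, against 160.2, 139.6, 157.8, 171.2 and 156.4 in Con (−0.24, SE 0.11). Cd55, which restrains complement, read 159.2, 197.6 and 165.1 in FKO, against 228.7, 186.2, 186.2, 199.1 and 187.3 in Con (−0.24, SE 0.12). The groups overlapped in both, with FKO 3 lowest for Smpd3 and FKO 1 lowest for Cd55. The summed intensity of the 11 genes ranged from 4175 to 5703 in FKO and from 5295 to 5897 in Con, with FKO 3 lowest.

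Among 10 tested genes of committed preadipocytes (Cebpd had no probe), 2 were positive, 8 negative and 0 passed, with a median of −0.05. Gata3, a transcription factor that restrains adipogenesis, read 138.5, 100.5 and 199.3 in FKO, against 100.4, 157.7, 104.9, 106.1 and 99.61 in Con, so that FKO 1, FKO 3 and Con 2 were its 3 high arrays, as for the epididymal genes. On the other 5 arrays it was not above background, and no fold is given. Vcam1, an adhesion molecule, gave −0.21 (SE 0.22). Sdc1, a heparan sulfate proteoglycan, was above background on 2 FKO and 1 Con arrays, with no value over 119.3. Of 5 tested genes of F3-positive stroma, 3 were positive and 2 negative, 0 passed, and F3 itself was not above background. Clec11a, a secreted growth factor, read 196.2, 146.8 and 194.3 in FKO, against 151.5, 153.8, 139.1, 156.8 and 162.2 in Con (0.29, SE 0.13), with FKO 2 inside the Con values. Gdf10, a BMP-family ligand, gave −0.19 (SE 0.26).

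Dcn encodes decorin, which binds collagen fibrils and TGF-β. Its brighter probe, ILMN_2747959, read 9982, 8774 and 7126 in FKO, against 8353, 8178, 9386, 9982 and 8841 in Con. FKO 1 and Con 4 tied for the highest value and FKO 3 was the lowest, a ratio of 1.4. The values are quantile-normalized, so the tie is in rank among the probes of each array. The log2 fold change was −0.06 (SE 0.12, interval −0.33 to 0.21, exact permutation p = 0.625), and it was 0.07 without FKO 3 and −0.06 without FKO 1, FKO 3 and Con 2. The dimmer probe, ILMN_2596346, spread more widely, at 2876, 2094 and 1705 in FKO, against 2107, 1864, 3214, 4016 and 2016 in Con. FKO 3 was again the lowest and Con 4 the highest, now by 2.36 times (log2 fold change −0.22, SE 0.29, exact permutation p = 0.5).

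Lum encodes lumican, a related proteoglycan, and lies next to Dcn on chromosome 10. ILMN_3001540 read 1020, 1473 and 842.7 in FKO, against 1341, 982.9, 1228, 1232 and 1167 in Con. As with Cd34, FKO 2 was the highest array and FKO 3 the lowest. Its log2 fold change was −0.14 (SE 0.18, interval −0.55 to 0.28, exact permutation p = 0.536), turning to 0.05 without FKO 3 and to 0.26 without FKO 1, FKO 3 and Con 2. Adjacent in the annotation, Dcn and Lum did not keep the same order of arrays: on FKO 1 Dcn deviated from its mean by 0.19 and Lum by −0.17 on the log2 scale. Kera, the next gene of this cluster, was not above background.

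Other small leucine-rich proteoglycans gave 1 positive and 4 negative values among 5 tested, a median of −0.14, and 0 passed. Ogn read 2905, 2353 and 2429 in FKO, against 2285, 1942, 2659, 2487 and 1881 in Con (0.20, SE 0.14). Prelp gave −0.19 (SE 0.16) and Podn −0.16 (SE 0.12). Wider fibroblast and matrix genes gave 3 positive and 10 negative values among 13 tested (Fn1 and Fbn1 had no probe), a median of −0.12, and 0 passed. Tnxb, which spaces collagen fibrils, read 428.4, 467.6 and 312.7 in FKO, against 461.0, 452.7, 465.7, 482.0 and 470.9 in Con (−0.26, SE 0.13), where the 5 Con arrays were close together and FKO 1 and FKO 3 lay under them. Col1a2, a chain of type I collagen, gave −0.25 (SE 0.15), and Fbln1, a basement membrane glycoprotein, −0.30 (SE 0.23).

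Mme encodes neprilysin (CD10), a membrane metalloendopeptidase that cleaves small peptides such as natriuretic peptides and enkephalins, and it marks stromal cells in many tissues. The brighter probe, ILMN_2863362, read 360.1, 257.1 and 362.3 in FKO, against 218.7, 227.9, 234.9, 236.8 and 226.4 in Con. All 3 FKO arrays lay above all 5 Con arrays, which were close together, and FKO 2 was the nearest to them. For this probe the log2 fold change was 0.58 (SE 0.13, interval 0.28 to 0.88), with an unadjusted p of 0.00193, an adjusted p of 1 by limma, and an exact permutation p of 0.0179, the smallest that 56 splits can give. Groups parted in this direction for 1.15% of all tested probes, and in the other direction for 1.44%, with 0 members among them. The dimmer probe, ILMN_2863366, read 123.6, 114.1 and 124.4 in FKO, against 111.0, 112.9, 110.1, 118.1 and 112.5 in Con, with FKO 2 below Con 4 (log2 fold change 0.15, SE 0.07, exact permutation p = 0.0357). It lay close to background, where folds are compressed.

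The call on Mme turned on FKO 2. Without that array the log2 fold change was 0.77 (adjusted p = 0.00335, unadjusted p = 6.32e-06 by limma), and Mme was 1 of 189 probes called higher, 1.37% of those tested. The arrays then left in FKO were the 2 rich in epididymal transcripts. Adam7, a protease-like gene of the epididymis, read 3939, 117.1 and 7925 in FKO, against 141.8, 530.6, 196.0, 220.8 and 132.1 in Con. Without FKO 1, FKO 3 and Con 2 the log2 fold change of Mme was 0.20 (unadjusted p = 0.12 by limma), with FKO 2 as the 1 FKO array left. On Con 2 Adam7 was the highest of the Con arrays but far below FKO 1 and FKO 3, and Mme lay in the middle of the 5 Con arrays. Whether epididymal transcripts have a part in the Mme values was not tested.

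**Figure D2:**
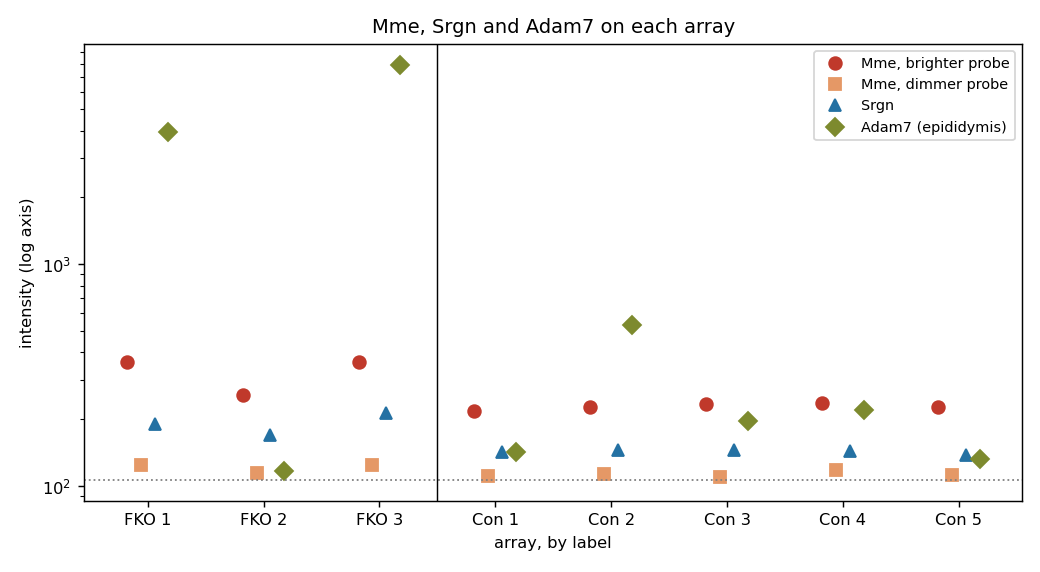
Intensity (log axis) of the 2 Mme probes, of Srgn and of the epididymal gene Adam7 on each of the 3 FKO and 5 Con arrays, with the background limit of 106.28 dotted. Mme and Srgn are higher on FKO 1 and FKO 3 than on FKO 2, as Adam7 is, and on FKO 2 the brighter Mme probe and Srgn still lie above the Con arrays while Adam7 lies below them.

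Of 10 tested enzymes related to DPP4 and neprilysin, 4 were positive and 6 negative, from −0.43 to 0.08 with a median of −0.02, and 0 passed. Dpp7, a lysosomal dipeptidyl peptidase, read 535.5, 279.8 and 424.3 in FKO, against 320.5, 576.4, 312.5, 963.7 and 714.0 in Con (−0.43, SE 0.44), a spread wider than the difference. Fap, the fibroblast activation protein, gave −0.09 (SE 0.12), and Prep, a prolyl endopeptidase, gave 0.08 (SE 0.14). Mmel1, the closest relative of neprilysin, was not above background.

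Dlk1 encodes PREF-1, a membrane protein of preadipocytes that inhibits adipogenesis and is expressed from the paternal allele. Its probe ILMN_1244618 read 99.54, 102.3 and 99.27 in FKO, against 100.8, 98.94, 101.8, 104.8 and 101.6 in Con. None of these exceeds 106.28, so that only an upper bound is had and no fold is given. Of 5 tested genes from the imprinted growth network, 2 were positive and 3 negative (median −0.11), and 0 passed. Igf2 gave −0.11 (SE 0.14), Cdkn1c −0.25 (SE 0.27) and Grb10 −0.13 (SE 0.10).

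**Figure D3:**
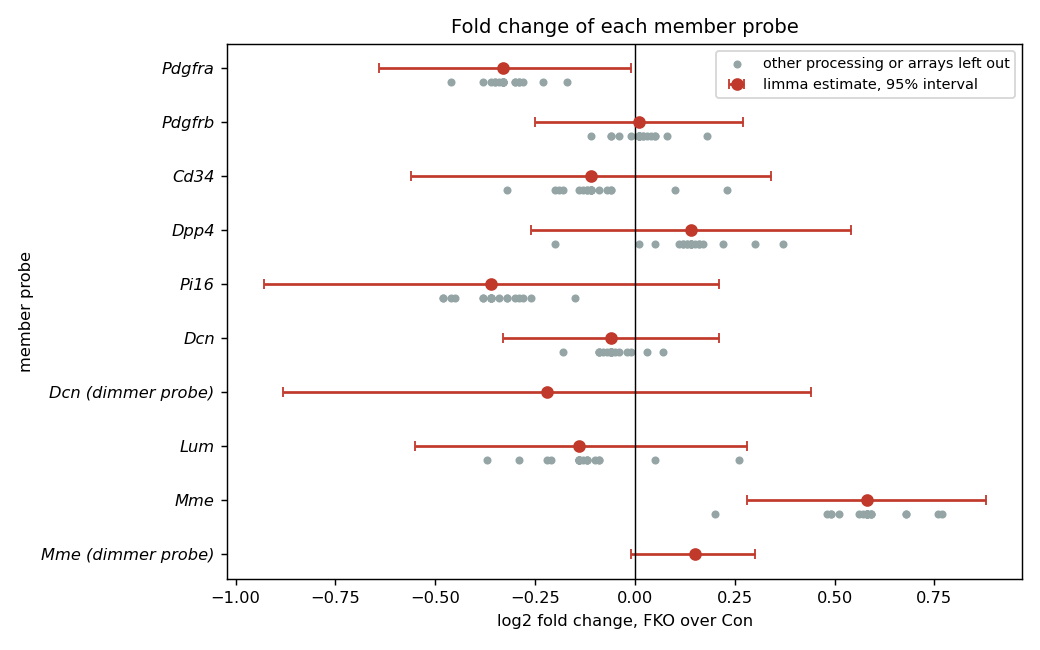
Log2 fold change, FKO over Con, of the 10 tested probes (red, limma estimate with its 95% interval) and of the brightest probe of each gene under other processing or with arrays left out (grey). The intervals of the brighter Mme probe and of Pdgfra exclude 0, the other 8 include it, and the grey points of Pdgfra, Pi16 and Mme stay on 1 side of 0.

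The median range from the lowest to the highest array was 0.83 on the log2 scale over the 8 members, against 0.421 over all tested probes, dim ones with compressed folds included. FKO 3 was the lowest array for 5 of the 8 (Pdgfra, Cd34, Pi16, Dcn and Lum), where it was the lowest for 21.1% of all tested probes. It was the highest for Dpp4 and Mme, and for 14.2% of all tested probes. Con 4 was the highest for Pdgfra and Pi16 and tied for Dcn, and was the highest for 16.7% of all tested probes. FKO 2 was the highest for Pdgfrb, Cd34 and Lum, and for 14.7% of all tested probes. The median deviation of the 8 genes was 0.03, −0.01 and −0.38 in FKO, against 0.12, −0.21, 0.12, 0.15 and −0.09 in Con, and without FKO 3 their median log2 fold change was 0.06.

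**Figure D4:**
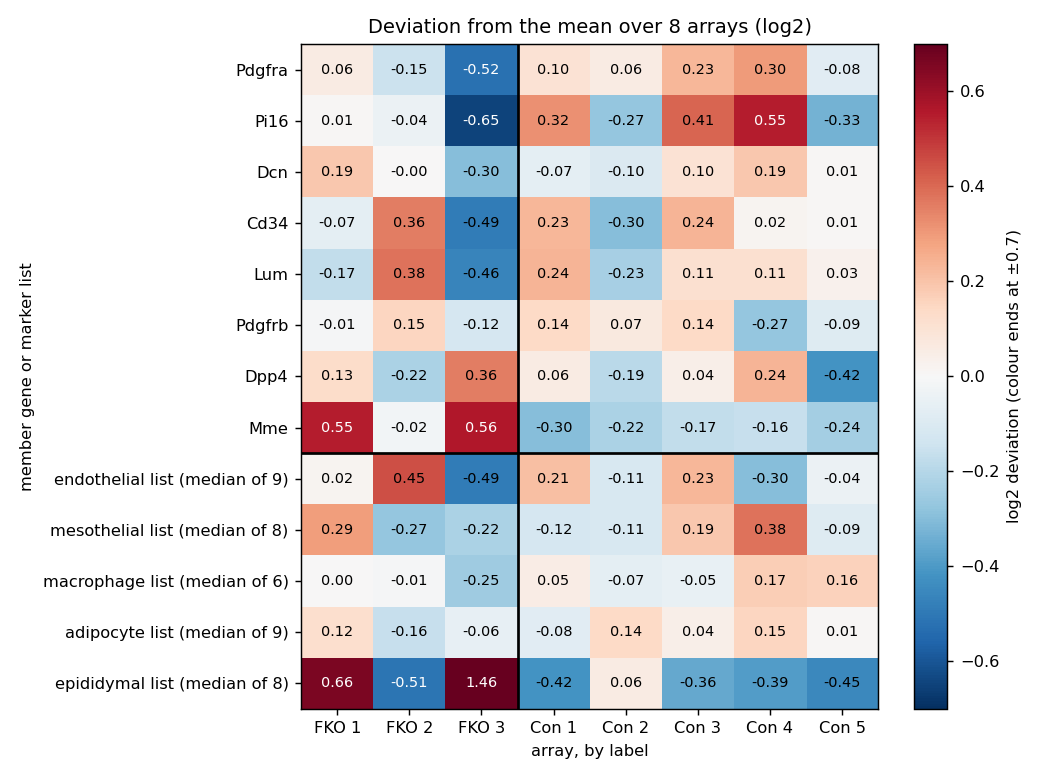
Deviation of each tested member (upper rows) and median deviation of 5 marker lists (lower rows) from the mean of 8 arrays, on the log2 scale, with FKO arrays left of Con arrays. Blue fills the FKO 3 column from Pdgfra down to Lum (−0.30 to −0.65), Cd34, Lum and the endothelial row are all high on FKO 2 and low on FKO 3, and Mme has its highest values on FKO 1 and FKO 3, as does the epididymal row.

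FKO 3 was also the lowest array for the median deviation of the tested macrophage genes (−0.25), whereas that of the adipocyte genes was lowest on FKO 2 (−0.16) and −0.06 on FKO 3. Summed intensity of the 9 adipocyte genes ranged from 43860 (FKO 3) to 54640 in FKO and from 51220 to 56230 in Con, that of the 8 macrophage genes with a probe from 4299 (FKO 3) to 5692 in FKO and from 4816 to 6249 in Con, and that of 8 mesothelial genes from 1578 to 2417 in FKO and from 1759 to 2784 in Con. Of these lists 0 genes passed the test, and Ptprc and Itgam, defining markers of leukocytes, were not above background. Log2 fold changes were negative for 8 of 9 tested adipocyte, 5 of 6 macrophage and 7 of 8 mesothelial genes. They were negative for 6 of 9 endothelial and 2 of 3 lymphocyte genes. The share over all tested probes was 56.6%. The 6 lymphocyte genes with a probe, 3 of them not above background, summed to 650.7 to 690.0 in FKO and 640.3 to 697.8 in Con. Mesothelial genes were high on FKO 1, Con 3 and Con 4 (median deviation 0.29, 0.19 and 0.38), the highest arrays for both Dcn probes. The 3 tested erythroid genes summed to 12650 to 13580 in FKO and 8281 to 12760 in Con, and all 3 had a positive log2 fold change. Alas2 among them read 251.8, 234.0 and 284.4 in FKO, against 166.0, 210.7, 197.0, 167.6 and 203.8 in Con. Its groups did not overlap (0.55, SE 0.13), as for 1.15% of all tested probes with FKO higher. Of the brightest gene in each list, Lep had a log2 fold change of −0.12 (SE 0.07), Esam −0.07 (SE 0.28), Lyz2 −0.24 (SE 0.21), Cd3e −0.14 (SE 0.16), Upk3b −0.25 (SE 0.28) and Hba-a1 0.29 (SE 0.13), for the adipocyte, endothelial, macrophage, lymphocyte, mesothelial and erythroid lists in that order. Whether any of these moved the members was not tested.

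For the 3 members with the widest range, the most similar genes among 9589 were taken by the root-mean-square (RMS) difference of mean-centred log2 values over the 8 arrays. Cd34 was matched most closely, by Ube2e3, a ubiquitin-conjugating enzyme (0.0577), Cerk, the ceramide kinase (0.0584), and Klf2, a transcription factor of endothelium under flow (0.0646). Klf2 read 279.9, 349.9 and 232.6 in FKO, against 324.4, 262.8, 341.4, 299.8 and 308.4 in Con, with FKO 2 highest and FKO 3 lowest as for Cd34. Pi16 had no match as close. Its nearest were Ehd4 (0.138), Slc12a2, the sodium-potassium-chloride cotransporter (0.146), and Slpi, a secreted protease inhibitor (0.15). Slpi read 1225, 1336 and 1024 in FKO, against 1606, 1263, 1775, 2325 and 1291 in Con, so that Con 1, Con 3 and Con 4 were its 3 high arrays, as for Pi16.

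Mme was matched by Stap1, a signalling adaptor (0.0822), Ints6l (0.0924) and Srgn, the proteoglycan of secretory granules in blood cells (0.0976). Srgn read 189.6, 169.4 and 214.2 in FKO, against 141.5, 145.7, 145.0, 143.5 and 137.5 in Con. As with Mme, its groups did not overlap and its Con arrays were close together (log2 fold change 0.55, SE 0.09). Stap1 read 148.9, 108.0 and 159.3 in FKO, against 107.3, 101.6, 105.2, 107.8 and 104.1 in Con, where FKO 2 lay barely above Con 4. Likeness over 8 arrays was how these genes were found, so their fold changes are given as a description.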

How the data were processed

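An array (Illumina MouseRef-8 v2.0) was run per mouse on pgWAT RNA, 8 in all. The deposited values are quantile-normalized probe intensities on a linear scale, by the authors' methods; software and any background step are not given in the sources used here. Background is still in them, since 52.199% fall within 10 of their mode, 98.601. The limit of 106.28 lies as far above the mode as the lowest 1% of the part under the mode lies below it. A second, non-normalized table was left out: it has 16 columns and their headers tie to no array. Of the 25697 probes 23978 carry 1 gene symbol, 0 several and 1719 none, and 23962 matched the reference by Entrez ID.

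Intensities were corrected by normexp (offset 50), quantile-normalized, taken to log2 and fitted with limma 3.58.1 in R 4.3.3 (two-sided, Benjamini-Hochberg over 13775 probes, threshold 0.05). Intervals are 95%. Exact permutation tests used all 56 splits into 3 and 5. The methods' t-test assumed equal variances. The number of arrays limits the precision. A gene is given by its brightest probe.

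The members and lists were chosen with earlier results of these data known. Named are all members and their probes, Ogt, up to 3 genes per related list with the smallest p, the brightest gene per cell list, and 3 nearest profiles for the 3 members of widest range. Genes named only because they lacked a probe or signal, such as Kera and Mmel1, were added after their values were seen, and so was Alas2. Alternatives were other background, scaling, level filters, fits, tests and probes, a replicate block, and arrays left out. The code was tested on simulated data. Figures used matplotlib 3.10.9.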

Additional observations from a re-analysis of the deposited data

How the results depend on the processing

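Under 20 alternatives that kept the brightest probe, Pdgfra (log2 fold change −0.46 to −0.17), Pi16 (−0.48 to −0.15) and Mme (0.20 to 0.77) kept their sign, and the other 5 turned under at least 1. By the dimmer probe Mme was 0.15 and Dcn −0.22. With array weights Pdgfrb was −0.04 and Dcn 0.03. Leaving out each array in turn gave −0.06 to 0.08 for Pdgfrb, −0.32 to 0.10 for Cd34, 0.01 to 0.30 for Dpp4, −0.18 to 0.07 for Dcn, −0.37 to 0.05 for Lum and 0.48 to 0.77 for Mme, with 0 to 1 members called. The 1 call was Mme without FKO 2 (adjusted p = 0.00335 by limma, against 0.514 to 1 without any other single array). Over all probes, that fit called 189 higher and 2 lower, the fit without Con 5 called 0 higher and 15 lower, and the fit without FKO 2, Con 1 and Con 3 called 1 higher. Without FKO 1, FKO 3 and Con 2, Pdgfrb was 0.18, Cd34 0.23, Dpp4 −0.20 and Lum 0.26, with 1 FKO array assumed to vary like the rest. The causes were not tested. Leaving out FKO 3 or those 3 arrays turned the median of the members to 0.06.

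Deviations of same-numbered arrays from their group means correlated at −0.56, −0.70 and −0.41. Differently numbered arrays were not compared, so these values cannot settle whether the replicate numbers pair the arrays. With the number as a replicate block Pdgfrb was −0.11 and 0 probes were called, as without it. Con 4 and Con 5 add nothing to that fit. Dim probes, such as Pdgfrb and the dimmer Mme probe, have compressed folds, Dlk1 has only an upper bound, and 3 arrays against 5 limit every test.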
